A study of Mus musculus with 6 samples.

Results

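Ighm and 9 other genes of the early B lineage (Igll1, Vpreb1, Cd79a, Cd79b, Blnk, Ebf1, Pax5, Spib and Il7r) were followed in cultured mouse myeloid cells in which the transcription factor PU.1 was induced. They are 10 of the 22180 genes with a measurement of their own. A measurement, called a transcript cluster, was taken as a gene's own where the platform annotation gave it that gene symbol and no other. Ighm had 7 such clusters, all of which are described, and each of the other 9 genes had 1, so that 16 of 41345 clusters are concerned. The induced samples (3 arrays, labelled A, B and C) were myeloid cells from fetal liver given 1000 ng/ml doxycycline for 72 hours, a treatment that the labels equate with PU.1 expression. The uninduced samples (3 arrays, also A, B and C) were the same kind of cell without doxycycline, and both groups grew in 1 ng/ml GM-CSF, a myeloid growth factor. The labels do not give the mouse strain, the construct or the number of clones or cultures, and no sample had doxycycline without induction, so the drug and PU.1 cannot be told apart. Ighm was chosen by its measured fall in the same comparison, known from its brightest cluster, and the other 9 genes were picked around it with the results in view. The differences of the 10 genes are therefore given as a description, and no p-value is given for them.

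B lymphocytes begin as progenitors in fetal liver and bone marrow in which Ebf1 and Pax5 switch on the genes of the lineage, and signals through the interleukin-7 receptor keep these progenitors dividing. A rearranged heavy chain of the mu class, whose constant region Ighm encodes, pairs with the surrogate light chain made of the Igll1 (lambda 5) and Vpreb1 proteins. This pre-B-cell receptor signals through Cd79a and Cd79b and the adaptor Blnk. PU.1, encoded by Spi1, is needed for both B and myeloid cells, with high levels associated with the macrophage fate and lower levels with the B fate, and Spib encodes its close relative in B cells and plasmacytoid dendritic cells. Transcripts from an unrearranged or partly rearranged heavy chain locus are known in cells other than B cells, so RNA from the Ighm region does not by itself mark a B cell.

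Because PU.1 was the induced factor, the promoter windows of the members were searched for GAGGAA, letters found in many PU.1 sites, and for CCCNNGGG, the palindromic core of EBF sites, on both strands. The windows are those of RefSeq (build GRCm38.p6), from 250 bases before the start site to 50 after it, and 8 of the 10 genes had at least 1, with 9 windows in all since Ebf1 had 2. Among all 32851 RefSeq windows, 28.3% held GAGGAA and 13.7% held CCCNNGGG. GAGGAA was found once each in the windows of Igll1 (chr16:16863936-16864235, minus strand), Vpreb1 (chr16:16869206-16869505, minus strand) and Cd79a (chr7:24897247-24897546, plus strand), and in the second window of Ebf1 (chr11:44619978-44620277, plus strand). These 4 windows are shown because they hold the letters of the induced factor's site, 5′ to 3′ on the gene's strand, with the matches in capitals. TTCCTC is GAGGAA on the opposite strand, and CCCAGGGG in Igll1 is the match to CCCNNGGG.
Igll1: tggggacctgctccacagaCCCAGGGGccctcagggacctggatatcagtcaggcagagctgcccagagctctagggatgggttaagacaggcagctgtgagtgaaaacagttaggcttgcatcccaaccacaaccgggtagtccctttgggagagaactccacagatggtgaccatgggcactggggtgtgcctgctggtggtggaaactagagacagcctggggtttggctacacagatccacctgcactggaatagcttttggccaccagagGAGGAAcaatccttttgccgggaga
Vpreb1: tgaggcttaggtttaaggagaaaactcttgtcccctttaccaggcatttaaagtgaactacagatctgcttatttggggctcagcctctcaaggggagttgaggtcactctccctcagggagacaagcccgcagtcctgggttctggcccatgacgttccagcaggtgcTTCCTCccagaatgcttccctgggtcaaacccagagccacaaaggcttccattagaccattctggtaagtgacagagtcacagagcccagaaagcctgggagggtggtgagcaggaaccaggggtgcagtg
Cd79a: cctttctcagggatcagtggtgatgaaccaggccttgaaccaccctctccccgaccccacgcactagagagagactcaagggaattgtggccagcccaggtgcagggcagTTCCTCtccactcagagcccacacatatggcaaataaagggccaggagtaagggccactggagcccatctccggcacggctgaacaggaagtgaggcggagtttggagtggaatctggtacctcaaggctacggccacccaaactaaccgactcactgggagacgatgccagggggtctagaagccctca
Ebf1: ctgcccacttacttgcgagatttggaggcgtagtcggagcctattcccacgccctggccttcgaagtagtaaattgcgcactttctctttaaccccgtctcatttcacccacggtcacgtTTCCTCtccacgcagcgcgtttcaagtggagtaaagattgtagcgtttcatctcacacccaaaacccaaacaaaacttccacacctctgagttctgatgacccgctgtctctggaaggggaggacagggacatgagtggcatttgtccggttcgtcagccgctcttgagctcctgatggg
The remaining windows, of Blnk, Pax5, Spib, Il7r and the other Ebf1 start, had no GAGGAA. The Spib window (chr7:44532022-44532321, minus strand) held 2 overlapping matches to CCCNNGGG. A match is a run of letters and no evidence that a factor binds there, and no match says only that these letters are not in the window.

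The brightest Ighm cluster (17284349) was much lower in induced cells. It was the only member whose uninduced values all stood above background, as judged from receptor genes that such cells are not known to use, so the other 9 had little or no measurable level from which to fall. Ighm lies on chromosome 12 from 113418826 to 113422730 (GRCm38). Its log2 values were 8.21, 7.20 and 7.73 on arrays A, B and C of the induced cells, against 10.68, 10.04 and 10.15 in uninduced A, B and C. All 3 induced values lay below all 3 uninduced ones. The means were 7.71 ± 0.51 in induced and 10.29 ± 0.34 in uninduced cells (SD, n = 3 each), a measured log2 difference of -2.57 (SE 0.25). The distance below the uninduced mean was -2.07 for induced A, -3.09 for induced B and -2.56 for induced C, so that the fall was smallest in induced A. Of the 10 members 1, this one, was among the genes past the threshold (limma adjusted p under 0.05), as were 1.42% of all genes (0.374% higher and 1.05% lower). Since this fall brought Ighm into the set, nothing is read from that count.

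To judge which levels can be told from background, 1390 olfactory and vomeronasal receptor genes, which such cells are not known to use, were taken as a yardstick, and their 95th percentile was computed on each array. It stood at 7.39, 7.99 and 7.86 on induced A, B and C, against 7.37, 7.05 and 7.34 on uninduced A, B and C. Induced B and C thus had a higher background than the other 4 arrays. Ighm cluster 17284349 exceeded this percentile on 3 of 3 uninduced arrays and on 1 of 3 induced arrays, induced A. On induced B and C it was in the range of background, where its level is only a bound. With those 2 arrays set at their percentile the induced mean was 8.02, so the cluster was at least 4.82-fold lower in induced cells.

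**Figure D1:**
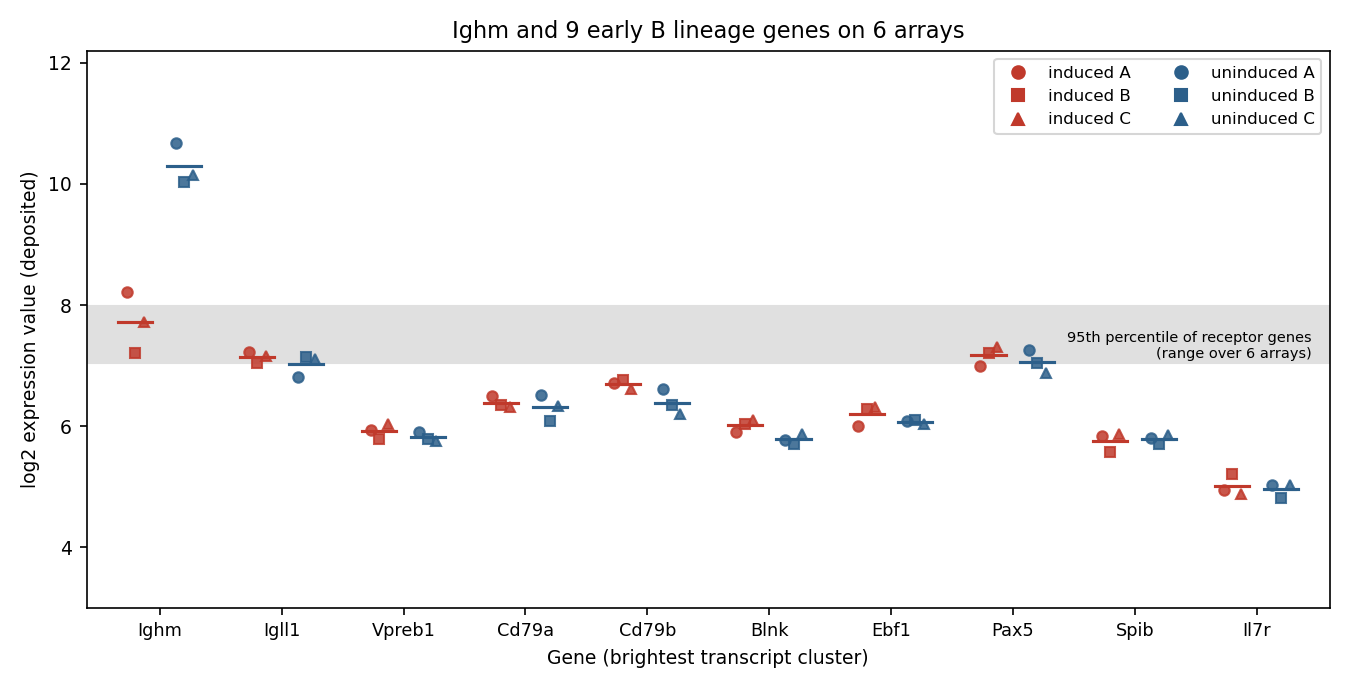
Log2 expression values (y axis) of the 10 genes (x axis) on each array, with induced arrays in red to the left of uninduced arrays in blue, letters A, B and C as circle, square and triangle, and group means as bars; the grey band spans the 95th percentile of the receptor genes over the 6 arrays. Ighm is above the band on the 3 uninduced arrays and near or in it on the induced ones, while the other 9 genes lie in or below it on every array.

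The fall was seen in 1 of the 7 clusters annotated to Ighm alone. The next cluster (17284360) was at 7.93, 8.26 and 8.27 in induced A, B and C, against 7.83, 7.75 and 8.26 in uninduced A, B and C. It was above the receptor percentile on all 6 arrays, the groups overlapped, and its difference was 0.21 (SE 0.18). Cluster 17284605 was above the percentile on all 6 arrays too, at 7.91, 8.38 and 8.39 in induced cells, against 7.87, 7.68 and 7.93 in uninduced cells, a difference of 0.40 (SE 0.17). Neither had a lower mean in induced cells. Of the 1390 receptor genes themselves, 47 were also above the percentile on all 6 arrays. That position alone therefore does not show that these clusters read Ighm RNA.

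The other 4 clusters were dimmer. Cluster 17284507 had means of 7.66 ± 0.20 in induced and 7.18 ± 0.17 in uninduced cells (SD, n = 3 each) and was above the percentile on 1 array of each group. Cluster 17284648 was at 7.19 ± 0.10 in induced and 6.62 ± 0.38 in uninduced cells, and cluster 17284503 at 6.59 ± 0.26 in induced and 6.26 ± 0.15 in uninduced cells, both in the range of background on all 6 arrays. In these 3 clusters the induced values lay above the uninduced ones, as they did for 15.6% of all clusters. Cluster 17284660 was the dimmest, at 3.99 ± 0.27 in induced and 4.07 ± 0.30 in uninduced cells, and below the median of the receptor genes on every array. The 6 clusters together had a median difference of 0.37, with 5 of 6 above 0 as deposited and also after median centring, quantile normalization and cyclic loess, and the receptor genes had a median of 0.28. Which parts of the Ighm region each cluster covers is not given in the sources used here. No claim about a particular transcript form can therefore be made from the disagreement between clusters.

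**Figure D2:**
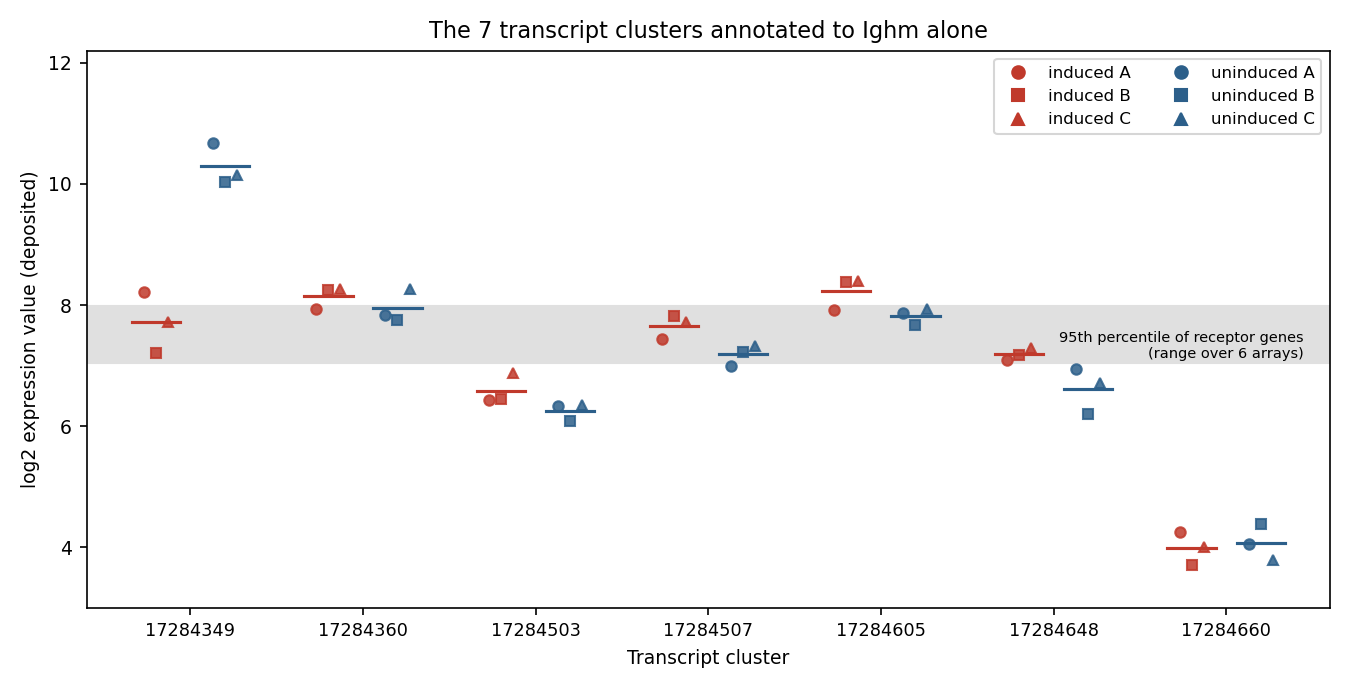
Log2 expression values (y axis) of the 7 transcript clusters annotated to Ighm alone (x axis, by identifier), drawn as in the plot of the 10 genes. Cluster 17284349 has a mean of 7.71 in induced and 10.29 in uninduced cells; the other 6 have differences between -0.08 and 0.57.

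No fall like that of the brightest Ighm cluster was measured in other clusters of the immunoglobulin loci. A group of 3 clusters carries Ighm together with other heavy or light chain symbols, and their differences were 0.22, 0.32 and 0.08 (SE 0.14, 0.18 and 0.12), with overlapping groups in each. Their means were 6.48, 7.78 and 8.27 in induced cells, against 6.26, 7.47 and 8.20 in uninduced cells. Of 22 clusters with a single symbol from the heavy, kappa or lambda locus other than Ighm, limma over all clusters called 0 higher and 0 lower in induced cells, where 0.0871% and 0.106% of all clusters were called higher and lower. At an unadjusted p under 0.05, 3 of the 22 were higher and 0 lower, where 10.9% of all clusters were higher. The 22 had a median difference of 0.10, and 17 of them never exceeded the receptor percentile. The 5 heavy chain clusters among them, of Ighg3 and 3 variable segments, had differences from -0.12 to 0.44. The 16 kappa clusters ran from -0.17 to 0.73, and the single lambda cluster, of Iglv1, was at 0.30. All induced values lay above the uninduced ones for 4 of the 22 and below them for 0, patterns shown by 15.6% and 11.5% of all clusters. For the 17 in the range of background a fall could not have been measured, so nothing is read from these counts.

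Igll1 and Vpreb1, the members that partner the mu chain in the pre-B-cell receptor, showed little signal in either group. Igll1 (chromosome 16, 16860671 to 16863985) was at 7.22, 7.04 and 7.16 in induced A, B and C, against 6.81, 7.14 and 7.10 in uninduced A, B and C. The groups overlapped, and the value exceeded the receptor percentile on uninduced B alone. Vpreb1 (chromosome 16, 16868401 to 16869255), whose product completes the surrogate light chain, was at 5.94, 5.79 and 6.03 in induced cells, against 5.91, 5.79 and 5.75 in uninduced cells. Their differences were 0.12 (SE 0.14) for Igll1 and 0.10 (SE 0.13) for Vpreb1. With both genes at or near background, nothing follows from these values about the GAGGAA in their windows.

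The signalling partners gave the same picture. Cd79a (chromosome 7, 24897497 to 24901858), which with Cd79b carries the receptor's signal into the cell, was at 6.49, 6.35 and 6.32 in induced cells, against 6.52, 6.08 and 6.34 in uninduced cells. Its difference was 0.08 (SE 0.15). Cd79b (chromosome 11, 106311341 to 106314562) was at 6.72, 6.77 and 6.62 in induced cells, against 6.62, 6.35 and 6.20 in uninduced cells. At 0.31 (SE 0.14) it had the largest difference of the 9, but induced C fell just below uninduced A. Blnk (chromosome 19, 40928927 to 40994221), the adaptor that links the receptor to phospholipase C, was at 5.90, 6.04 and 6.11 in induced cells, against 5.78, 5.70 and 5.88 in uninduced cells. It was the 1 of these 9 genes whose groups did not overlap, with a difference of 0.23 (SE 0.13), while 31.4% of all genes had groups that did not overlap. Cd79a, Cd79b and Blnk were in the range of background on all 6 arrays.

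The transcription factors that define the lineage were likewise near background. Ebf1 (chromosome 11, 44618100 to 45008096), which opens the B lineage programme, was at 6.004, 6.29 and 6.32 in induced cells, against 6.08, 6.10 and 6.04 in uninduced cells. Pax5 (chromosome 4, 44524748 to 44710694), which holds cells in that lineage, was at 6.99, 7.21 and 7.31 in induced cells, against 7.26, 7.05 and 6.87 in uninduced cells. Spib (chromosome 7, 44525995 to 44532087), of the same ETS subfamily as PU.1, was at 5.83, 5.57 and 5.88 in induced cells, against 5.81, 5.71 and 5.85 in uninduced cells. All 3 overlapped between groups, with differences of 0.13 (SE 0.13) for Ebf1, 0.11 (SE 0.15) for Pax5 and -0.03 (SE 0.13) for Spib. Pax5 touched the receptor percentile on 1 array, uninduced B, and Ebf1 and Spib on none.

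Il7r (chromosome 15, 9506159 to 9529941), the alpha chain of the interleukin-7 receptor and a gene that PU.1 is known to activate in lymphoid progenitors, was the dimmest of the 10. It was at 4.95, 5.21 and 4.89 in induced cells, against 5.03, 4.81 and 5.02 in uninduced cells, below the median of the receptor genes on all 6 arrays. The groups overlapped, and the difference was 0.06 (SE 0.14).

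The 9 genes other than Ighm had a median difference of 0.11, from -0.03 to 0.31, with 8 of 9 above 0, beside a median of 0.06 and 56.0% above 0 for all genes. The sign depended on the scaling: 2 of 9 were above 0 after median centring and 4 of 9 after quantile normalization or cyclic loess, with medians of -0.03, -0.02 and -0.06. As deposited, the genes in the range of background on all 6 arrays (11922) had a median of 0.19 with 87.1% above 0, and those above it on all 6 (5379) a median of -0.31 with 14.1% above 0. The background was higher on induced B and C, as given above, and its part in these small differences was not tested. Of the 9 genes 7 lay in the range of background on every array, and an array value there sets only an upper limit, so a low level of these transcripts, or a change in it, was not measurable.

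Around the members, 69 further names of the B lineage were drawn up as 5 lists, and 61 had a measurement of their own. By limma with Benjamini-Hochberg adjustment over all genes, 2 of the 61 rose in induced cells and 0 fell, where 0.374% of all genes rose and 1.05% fell. At an unadjusted p under 0.05, 10 of the 61 were higher and 6 lower. The same unadjusted threshold called 2538 of all 22180 genes higher and 3743 lower, 28.3% in either direction. That share is the one to set beside each unadjusted count of genes below. The pair that rose, Bst1 and Ptprc, are not confined to B cells. Bst1, the surface enzyme CD157 of bone marrow stromal, early B and myeloid cells, was at 8.999, 8.81 and 8.61 in induced A, B and C, against 6.28, 6.59 and 6.51 in uninduced A, B and C. On the 3 induced arrays it came above the range of background, a rise of at least 2.93-fold (limma adjusted p = 5.82e-05, between 4.28e-07 and 0.00281 over the alternatives). Ptprc, the leukocyte phosphatase CD45, was at 6.696, 6.09 and 6.15 in induced cells, against 5.35, 4.90 and 4.97 in uninduced cells. It passed the test (limma adjusted p = 0.0106) although all 6 values lay in the range of background, so no size is given, and the call ended after median centring (adjusted p = 0.0668), after cyclic loess (adjusted p = 0.0557) and without uninduced B (adjusted p = 0.0525).

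The result for these 61 genes depended on 1 array. Without induced A, 8 were higher (Blk, Bst1, Dntt, Fcmr, Lef1, Ms4a1, Pou2af1 and Ptprc) and 6 lower (Btk, Pik3ap1, Socs2, Stat5b, Tcf12 and Tcf4), but 9.01% of all genes were then called higher and 15.9% lower. The 8 and 6 of 61 stand against those shares. Over all clusters, arrays of the same group correlated at r = 0.9732 to 0.9879, and arrays of different groups at r = 0.9421 to 0.9907. The most alike pair was thus 1 induced and 1 uninduced array, so the arrays did not separate fully by group.

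Among 19 transcription factors of the lineage 0 rose and 0 fell (3 higher and 2 lower by unadjusted p under 0.05), and the median difference was 0.10. The brightest were Myb, a factor of progenitor growth, at 11.43 ± 0.33 in induced and 11.63 ± 0.08 in uninduced cells (SD, n = 3 each), and Runx1, a factor of blood stem cells, at 10.03 ± 0.04 in induced and 10.22 ± 0.16 in uninduced cells. Spi1 itself, in this list, was at 9.13, 9.04 and 9.05 in induced cells, against 8.80, 8.65 and 8.84 in uninduced cells, and did not pass the test (limma adjusted p = 0.152). Whether its cluster reads the induced copy of the gene is not known here.

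The partners of recombination and of the surrogate light chain, 4 of 5 found, held no call (2 higher and 0 lower at an unadjusted p under 0.05; median 0.28). Vpreb2, the near copy of Vpreb1, was at 7.92, 8.03 and 7.93 in induced cells, against 7.84, 7.47 and 7.57 in uninduced cells (limma adjusted p = 0.159), above the receptor percentile on all 6 arrays. Vpreb1 and Vpreb2 are close in sequence, so signal shared between their probes cannot be told apart. Dntt, the polymerase that adds bases at heavy chain joints, was at 6.61 ± 0.16 in induced and 6.19 ± 0.06 in uninduced cells (limma adjusted p = 0.12), in the range of background.

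Genes that carry the receptor's signal onward, 14 of 17 found, had Ptprc as their one call (median -0.12; unadjusted p under 0.05 for 2 higher and 2 lower). Several of them are also myeloid signalling genes and were well above background. Syk, the kinase that docks on Cd79a and Cd79b, was at 9.07, 8.95 and 8.75 in induced cells, against 8.80, 9.06 and 8.95 in uninduced cells, a difference of -0.01 (SE 0.14). Btk, the kinase that acts with Blnk, was at 9.32, 8.62 and 8.90 in induced cells, against 9.21, 9.42 and 9.33 in uninduced cells, a difference of -0.37 (SE 0.18, limma adjusted p = 0.188). Thus Syk and Btk were measurable in both groups, while Blk of the same list, Cd79a, Cd79b and Blnk were not above background.

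Of the interleukin-7 receptor partners 8 of 10 were found and 0 rose or fell (0 higher and 2 lower at an unadjusted p under 0.05; median -0.15). Jak1, a kinase shared by many cytokine receptors, was at 10.16 ± 0.21 in induced and 10.33 ± 0.14 in uninduced cells. Cish, a cytokine-induced feedback inhibitor, was at 8.97 ± 0.71 in induced and 9.37 ± 0.46 in uninduced cells. The surface and later genes of the lineage, 16 of 18 found, had Bst1 as their one call (3 higher and 0 lower at an unadjusted p under 0.05; median 0.25), and 11 of the 16 were in the range of background on all 6 arrays.

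**Figure D3:**
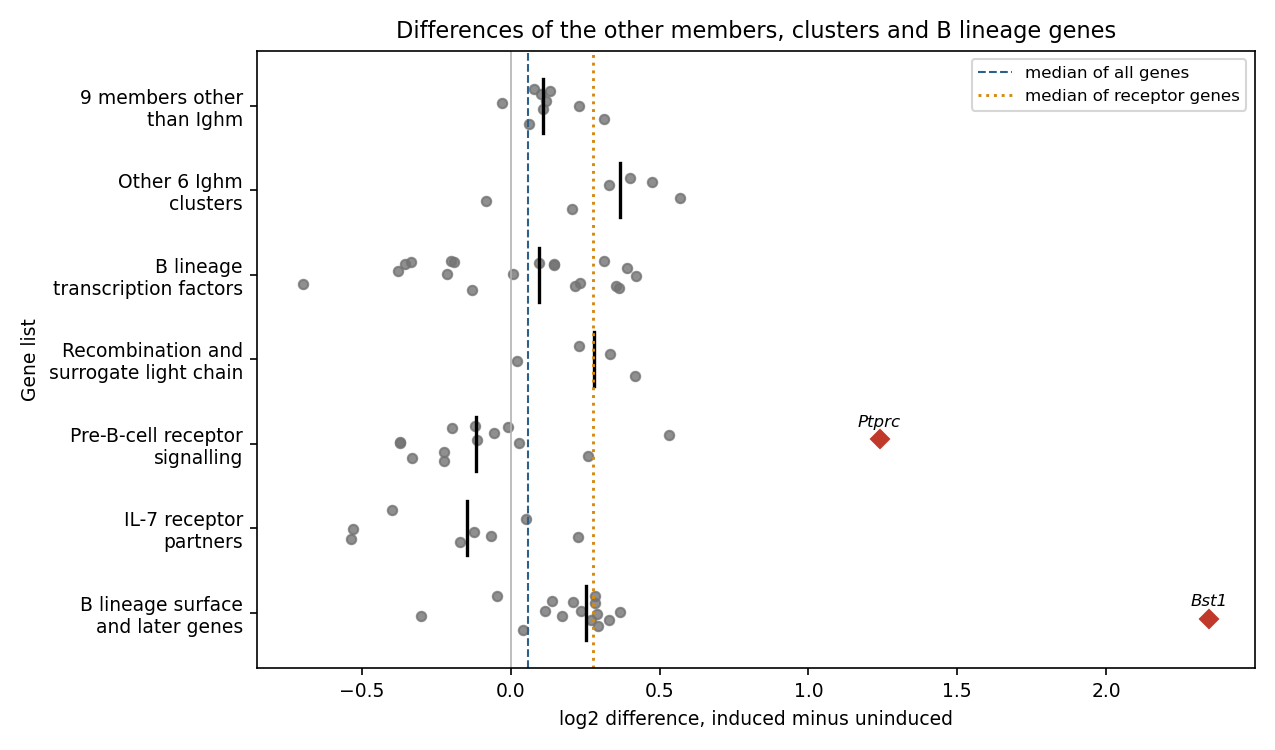
Log2 differences, induced minus uninduced (x axis), of the other 9 members, the other 6 Ighm clusters and the 5 lists of further B lineage genes (y axis); each point is a gene or cluster, black bars are list medians, the dashed line is the median of all genes (0.06) and the dotted line that of the receptor genes (0.28). Red diamonds mark Ptprc and Bst1, the genes of the 5 lists past the threshold; the grey points of the other members are a description.

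Markers of the cell types such a culture could hold were read on the same arrays. Of 10 myeloid markers 8 were above the receptor percentile on all 6 arrays. Mpo and Lyz2, a peroxidase and a lysozyme of myeloid granules, rose (limma adjusted p = 0.0117 and 0.0011), but the list as a whole did not. Its median difference was 0.006, with 5 of 10 above 0 (3 higher and 1 lower at an unadjusted p under 0.05). All induced values lay above the uninduced ones for 3 of the 10 and below them for 2, as for 16% and 15.4% of all genes. Of 6 mature B cell markers 0 passed the test (1 higher and 0 lower at an unadjusted p under 0.05), and 5 were in the range of background on all arrays. Their mean log2 level ran from 6.21 to 6.47 on the induced and from 5.98 to 6.16 on the uninduced arrays. Tnfrsf13c, the receptor for the B cell survival factor BAFF, was the brightest, at 7.89 ± 0.19 in induced and 7.77 ± 0.11 in uninduced cells. In the range of background a fall of such markers could not have been measured, so their part in the result for Ighm was not tested.

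Plasma cells and plasmacytoid dendritic cells can also carry Ighm RNA. None of 6 plasma cell markers passed the test (1 higher and 0 lower at an unadjusted p under 0.05), and 5 were in the range of background throughout. Their mean level was 7.20 to 7.35 on induced and 7.21 to 7.23 on uninduced arrays. The exception was Xbp1, a factor of secretory cells in general, at 11.62 ± 0.12 in induced and 11.90 ± 0.23 in uninduced cells, while Jchain, which joins secreted IgM, was at 5.52 in induced and 5.51 in uninduced cells. Of 8 plasmacytoid dendritic cell markers 0 passed (1 higher and 1 lower at an unadjusted p under 0.05), with a mean level of 6.86 to 6.96 on induced and 6.78 to 6.89 on uninduced arrays. Tcf4, their defining factor, which is also used by other cells, was at 8.37, 8.03 and 8.30 in induced cells, against 8.76, 9.29 and 8.74 in uninduced cells (limma adjusted p = 0.0822). Its induced values all lay below its uninduced ones, as for 15.4% of all genes, and its part in the result for Ighm was not tested. Tcf4 was the only 1 of the 8 with that pattern. Of the 8 markers 6 had a difference above 0 (median 0.23), and 2 had all induced values above their uninduced ones. In bulk RNA, fewer cells of a type and less RNA per cell cannot be told apart.

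The lists of T cell (7 found), NK cell (5), erythroid (3), megakaryocyte and mast cell (6), hepatocyte (5) and progenitor (5) markers held 0 calls (6 higher and 2 lower at an unadjusted p under 0.05, of 31 genes). Above the receptor percentile on all 6 arrays were only Nkg7 among the NK cell markers and Kit among the progenitor markers. Mcpt8 of the megakaryocyte and mast cell list was above it on 3 uninduced and 2 induced arrays. It was at 8.16, 7.24 and 7.89 in induced cells, against 8.555, 8.82 and 8.65 in uninduced cells (limma adjusted p = 0.0666). Its part in the result for Ighm was not tested. Of the 31 genes 28 had a difference above 0. All induced values lay above the uninduced ones for 8 and below them for 2, as for 16% and 15.4% of all genes. Kit, the stem cell factor receptor, was at 9.47 ± 0.26 in induced and 9.46 ± 0.27 in uninduced cells.

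The genes whose pattern over the 6 arrays was nearest to that of Ighm cluster 17284349 were not B lineage genes. Nearness was measured as the root mean square difference between log2 values centred on each gene's own mean, among all genes outside the set. The 6 nearest were Scd1, a fatty acid desaturase (0.22, Pearson r = 0.99), Fam162a, of mitochondria (0.25, r = 0.99), Tgm2, a transglutaminase (0.30, r = 0.98), Bnip3, a mitophagy receptor (0.41, r = 0.96), Ak4, a mitochondrial adenylate kinase (0.44, r = 0.99), and Egln1, the oxygen-sensing prolyl hydroxylase PHD2 (0.47, r = 0.99). Scd1 was at 8.47, 7.69 and 7.92 in induced A, B and C, against 10.45, 10.34 and 10.40 in uninduced A, B and C. Like Ighm, it was highest in induced A and lowest in induced B among the induced arrays. Such correlations rest on 6 arrays that fall into 2 groups and on the same scaling of each array, and any gene with a large fall comes near by construction, so they describe the profile only.

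**Figure D4:**
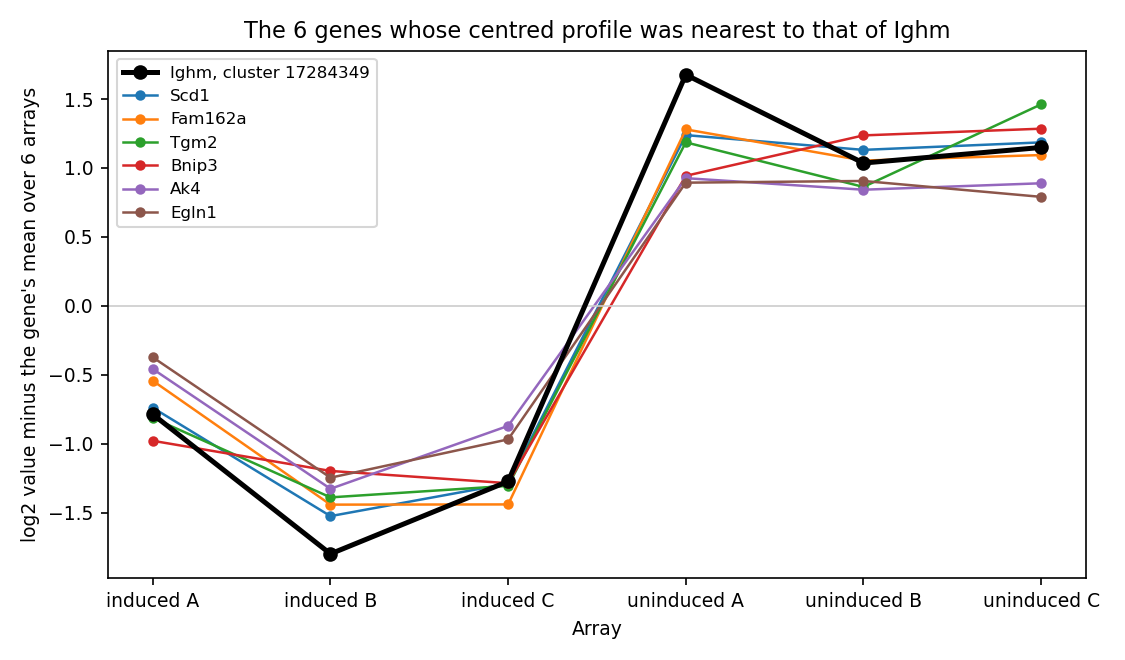
Log2 value minus the gene's mean over the 6 arrays (y axis) on each array (x axis, induced then uninduced) for Ighm cluster 17284349 in black and for the 6 genes nearest to it in colour. All 7 lie below 0 on the induced and above 0 on the uninduced arrays, and Ighm has the widest spread.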

How the data were processed

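RNA from 3 induced and 3 uninduced samples was hybridised to Affymetrix Mouse Gene 2.0 ST arrays, 1 per sample, and samples were grouped by title. The authors deposited a log2 value per transcript cluster (41345) and array, and these were used as they stand. Partek and build mm10 were named, per the submitters' processing notes; how the signal was corrected, normalized and summarised is not given in the sources used here, and the log2 scale was read from the values. Of the clusters 23521 had 1 gene symbol, 1814 several and 16010 were not listed in the platform annotation, which can be old. The cluster with the highest mean over the 6 arrays stood for each of 22180 genes, except that all Ighm clusters are given.

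The comparison used R 4.3.3 and limma 3.58.1, a two-sided moderated test without covariate or filter on dim genes, with Benjamini-Hochberg adjustment and a threshold of 0.05, over all genes or, for clusters, over all clusters; SEs of members come from the same fits. The test was checked on simulated data. The members and lists were chosen with earlier results of these data known. Of 128 listed names 114 were found; the others were not analysed here. Named genes are all members and Ighm clusters, Spi1, list genes past the threshold and the 6 nearest profiles. In the lists of further B lineage genes where none passed, the 2 brightest are named. Marker lists without a call do not follow that rule, and some have no gene named. The other genes named from lists were chosen after their values were seen. They are Syk, Btk, Tnfrsf13c, Xbp1, Jchain, Tcf4, Mcpt8, Nkg7, Kit and those called without induced A. The immunoglobulin clusters given with their levels were also chosen so. Nothing in the labels says that replicates were separate cultures, so p-values reflect the spread between these samples alone, which may be technical, and 3 arrays per group limit the precision. Alternatives were the replicate letter as a block, median centring, quantile normalization, cyclic loess, a filter at the 50th percentile of level, trend and robust moderation, the mean of a gene's clusters, and leaving out each array.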

Additional observations from a re-analysis of the deposited data

How the results depend on the processing

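The fall of Ighm cluster 17284349 kept its direction under each alternative run on it, between -2.82 and -2.32 when 1 array was left out. After median centring, quantile normalization and cyclic loess it was -2.72, -2.47 and -2.28. The mean over all 7 Ighm clusters was -0.10 (SE 0.13), which follows from the other 6. Genes called higher numbered 83 as deposited, 46 after median centring, and 45 to 1998 with 1 array left out; genes called lower numbered 232, then 153 after median centring, 142 after cyclic loess, and 47 to 3535 with 1 array left out. The extremes of 1998 and 3535 came without induced A. With the letter as a replicate block 174 were higher and 425 lower, and the block changed no call of a listed B lineage gene. Deviations of same-letter arrays from their group means correlated at r = -0.31 for A, -0.28 for B and 0.42 for C. Those of unlike letters ran from -0.42 to 0.52. With 3 arrays per group, whose deviations are tied to each other, these values cannot decide whether same-letter arrays were pairs. Of the 61 other B lineage genes 2 were higher as deposited, 1 after median centring, 1 after cyclic loess, 1 among genes above the 50th percentile of level (a filter that left 38 of them and removed Ptprc), and 1 to 8 with 1 array left out; 0 were lower, or 0 to 6 with 1 array left out. Of the 29 immunoglobulin clusters the 1 lower call, in a fit over all clusters, was Ighm cluster 17284349. That call was lost after cyclic loess and without induced C, uninduced A, uninduced B or uninduced C. It stayed without induced A or induced B, and the cause was not tested. Since Ighm was chosen by this fall, the call is no test of it, kept or lost. Median centring moved the median difference of all genes to -0.08, against 0.06 as deposited. Signal over background limits what can be said of the other 9 members.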
